A study of Mus musculus with 6 samples.

Results

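The genes described here encode the proteins that carry messenger RNA through initiation, elongation and termination of translation, and the aminoacyl-tRNA synthetases that load transfer RNA with amino acids. They were taken by symbol from the deposited table: Eif or Eef followed by a digit, Etf1, names that begin with Gspt, Eprs, and 1 or 2 letters followed by ars with an optional 1 or 2 at the end. The 60 rows listed above Aaas were left out, and the rule matched no gene there. This gave 92 of the 10131 genes in the remaining rows (10191 in the whole table). By role they were 47 initiation genes, 7 genes named as elongation factors, the elongation factor kinase gene Eef2k and 3 termination factors. The others were 18 synthetases that serve the cytosol and 16 that serve mitochondria. The name test left out Farsa, Farsb and Tarsl2, further cytosolic synthetase genes.

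The RNA is from tumour-bearing mouse lung. For 20 hours of each day, between 14:00 and 10:00, the animals were in an SD cage (SD, 3 libraries) or stayed in a home cage (Ctrl, 3 libraries), and this lasted 7 weeks from a virus injection. Lights were on from 8:00 to 20:00 in both groups, and the labels do not spell out SD (sleep deficiency is named in the title of the series). The series' design text gives 1 genotype for both groups, and all 6 libraries were treated as that genotype, although the genotype label differs from sample to sample. Which virus was used, how old the mice were and at what hour tissue was collected could not be learned. The labels call the libraries biological replicates without saying whether each came from a separate animal. Each p-value therefore sets the group difference against spread between libraries, which may not be spread between animals. That spread is not a gene's own alone, as the fit described below draws it toward that of genes of similar level.

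In translation initiation, eIF2 brings the initiator tRNA to the small ribosomal subunit, eIF2B recharges eIF2 with GTP, eIF3 holds the subunit and the message together, and the eIF4 proteins bind the cap and unwind the leader. Kinases that phosphorylate eIF2 lower initiation and raise translation of the transcription factor ATF4, a sequence known as the integrated stress response, while 4E-BP proteins hold back the cap-binding protein eIF4E. eEF1A then delivers each charged tRNA, eEF1B recharges eEF1A, eEF2 moves the ribosome along, and eRF1 with eRF3 releases the finished chain.

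Values are CPM, a gene's reads as a share of its library's total, and groups are given as means ± s.d. of 3 libraries. All 92 genes passed the filter of at least 1 CPM in at least 3 libraries. Differences were tested with limma over the 9945 genes of the table that passed, and a gene is said to rise or fall in SD where its Benjamini-Hochberg adjusted p lay under 0.05. Log2 fold changes are on the log2(CPM + 1) scale, which understates the change of low genes, and folds are ratios of mean CPM.

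Translation transcripts moved in both directions. The messages of the elongation factors eEF1A1, eEF2 and eEF1B2 fell by about the same proportion, 1.49-fold, 1.51-fold and 1.54-fold. Among initiation factors the eIF3 subunit genes Eif3b and Eif3l fell 2.04-fold and 1.99-fold and the helicase cofactor gene Eif4h 1.89-fold, while Eif1, Eif4g3, Eif2b4 and Eif4ebp1 rose 1.35-fold to 1.57-fold. Of the 18 cytosolic synthetases 9 fell, led by Gars and Wars, and 2 rose, Cars and Tars. Over all 92 genes, 18 rose, 31 fell and 43 did not pass. That is 53.3% called, against 56.4% of all tested genes, with 19.6% against 27.7% for rises and 33.7% against 28.7% for falls, so the share that changed lay near that of the whole table. The median log2 fold change was -0.086, beside -0.013 over all tested genes. The median size of the change without its sign was 0.28, beside 0.39, and 2 rises and 11 falls reached 1.5-fold, where the table as a whole had 15.9% and 16.8% of its genes. Groups did not overlap in 50 of the 92 (54.3%), against 60.1% of tested genes, with 18 of them higher (background 29.5%) and 32 lower (background 30.5%).

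**Figure D1:**
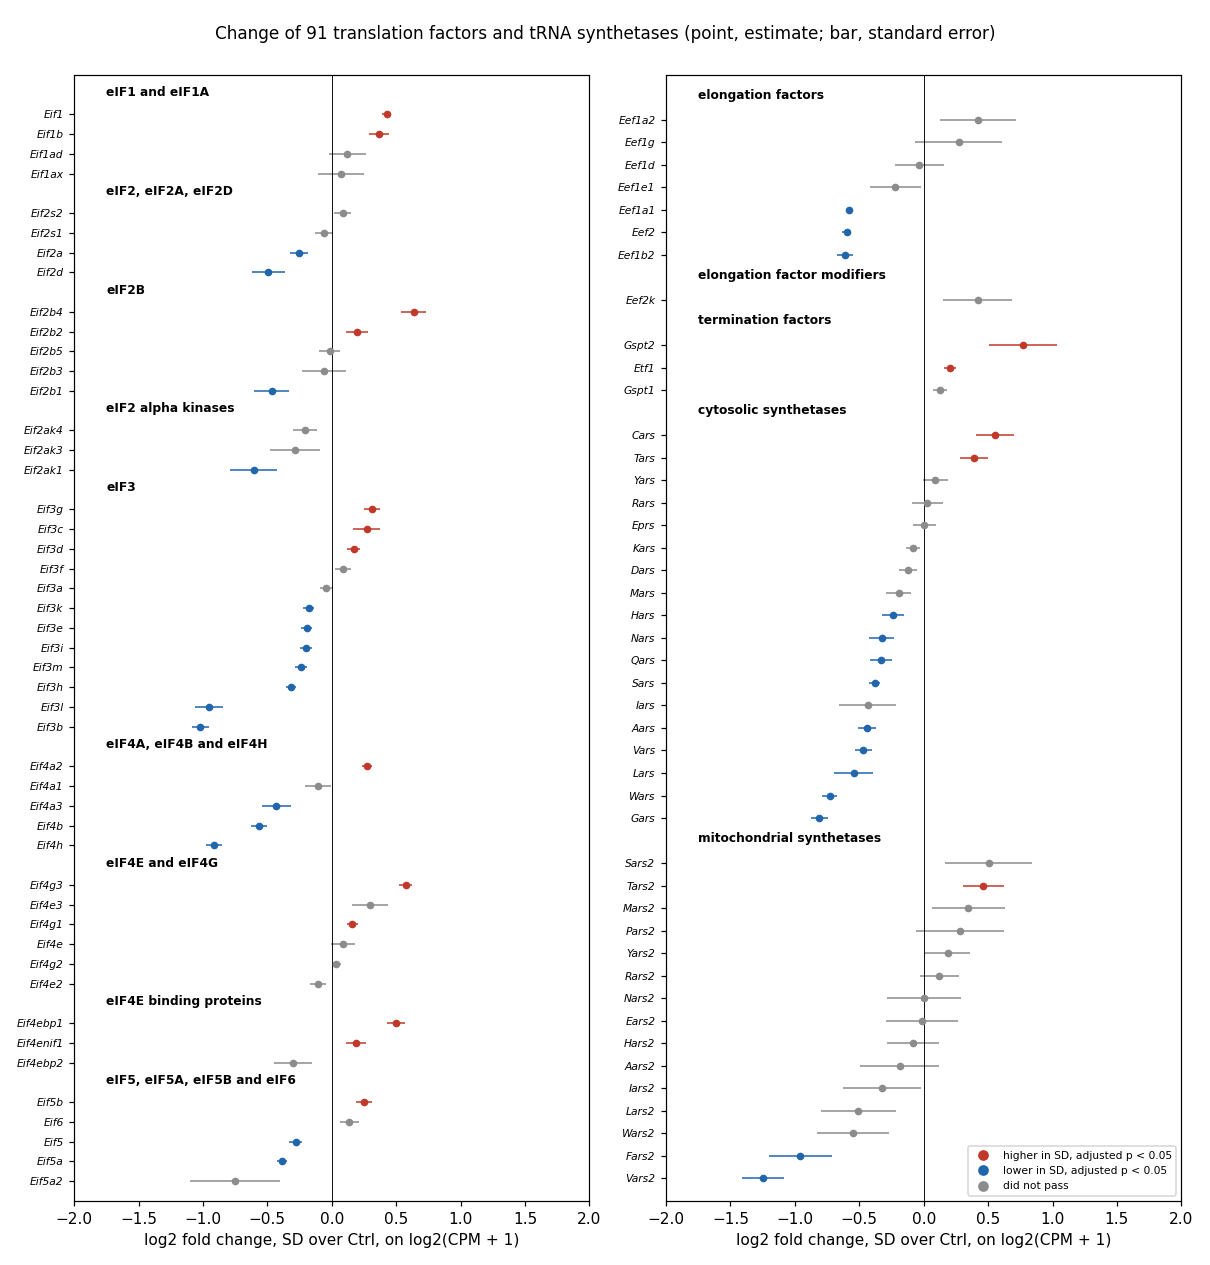
Log2 fold change of SD over Ctrl on the log2(CPM + 1) scale (horizontal axis) for 91 of the 92 genes, ordered within 14 roles, with the standard error of the fit as a bar and the colour showing whether the gene passed. The left panel holds the initiation genes, where Eif3b and Eif3l lie near -1, and the right panel the other roles, where Vars2 lies lowest at -1.25 and Gspt2 highest at 0.77.

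Together the 92 genes took 37800.3 ± 102 CPM in Ctrl and 30748 ± 119 CPM in SD, which is 3.78% and 3.07% of each group's reads. Eef1a1 and Eef2 alone took 20687 ± 100.3 CPM in Ctrl and 13808 ± 101 CPM in SD. The other 90 genes summed to 17114 ± 152 CPM in Ctrl and 16941 ± 211 CPM in SD, and these sums overlapped between the groups. Initiation genes summed to 13915 ± 170.2 CPM in Ctrl and 14233 ± 208 CPM in SD, cytosolic synthetases to 2240.0 ± 17.6 CPM in Ctrl and 1766 ± 29.3 CPM in SD and mitochondrial synthetases to 124 ± 4.13 CPM in Ctrl and 107 ± 2.999 CPM in SD. Of 18 members with a mean under 10 CPM 3 passed, and of the 74 others 46 did. With a filter of at least 10 CPM in at least 3 libraries, 4597 of 6818 tested genes and 48 of 76 members were called. At 6511192 to 7417095 reads per library, a floor of 3 reads came to between 0.404 and 0.461 CPM, for counting error alone.

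Markers of several cell types moved in the same comparison. The surfactant and other type 2 alveolar markers, of which 5 of 9 listed were in the rows analysed here, marked the tissue as lung and fell in 5 of 5 cases, with summed levels of 4540.1 to 5062 CPM in Ctrl and 1299 to 1374 CPM in SD. Alveolar macrophage markers fell in 3 of 4 cases (241 to 248 against 37.3 to 48.6 CPM), and proliferation markers in 5 of 5 (87.5 to 95.6 against 24.9 to 34.0 CPM). The rows held 4 of 8 listed macrophage markers and 5 of 6 listed proliferation markers. Ciliated, endothelial and smooth muscle markers rose in 7 of 7, 6 of 6 and 5 of 5 cases, with sums of 342 to 360.2, 881 to 913 and 375 to 382 CPM in Ctrl against 1312 to 1333, 2683 to 2753 and 1019 to 1031 CPM in SD. All listed ciliated and smooth muscle markers were in the rows, and 6 of 7 endothelial ones. Over all tested genes 27.7% rose and 28.7% fell. Of 3 tested B cell markers 2 rose (summed level 10.8 to 13.2 CPM in Ctrl, 33.8 to 37.5 CPM in SD), and both tested T cell markers rose (1.38 to 2.16 against 3.44 to 6.14 CPM). Each of these 2 lists named 5 markers, of which 3 for B cells and 2 for T cells were in the rows. Genes of heart, skeletal muscle and neurons, chosen as a list that lung should lack, were not at 0: their sum was 596 to 619 CPM in Ctrl and 257 to 291 CPM in SD, most of it the cardiac myosin genes Myh7 and Myh6. Of 6 listed 5 were tested, and of these 3 fell and 1 rose. The part of these shifts in the values below was not tested, and in bulk tissue fewer cells of a type and less RNA per cell cannot be told apart.

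Eif1 encodes the factor that keeps the scanning ribosome open until a start codon is found. It measured 1904, 1932 and 1857 CPM in the Ctrl libraries and 2521, 2457 and 2684 CPM in the SD libraries. Every SD library lay above every Ctrl library, a 1.35-fold rise (log2 fold change 0.43 ± 0.035 s.e., adjusted p = 2.5e-13). Its close relative Eif1b measured 84.1, 80.4 and 81.6 CPM in the Ctrl libraries and 108, 94.8 and 116 CPM in the SD libraries, and rose 1.29-fold (adjusted p = 1.2e-04). Eif1ax, for the partner factor eIF1A, did not pass at 12.5 ± 0.856 CPM in Ctrl and 13.2 ± 0.693 CPM in SD, nor did Eif1ad at 19.7 ± 1.05 CPM in Ctrl and 21.4 ± 1.62 CPM in SD. Of the genes for eIF2 itself, Eif2s1, the alpha subunit phosphorylated in stress, stood at 132 ± 9.17 CPM in Ctrl and 126 ± 8.73 CPM in SD and Eif2s2, the beta subunit, at 159.8 ± 8.55 CPM in Ctrl and 169.8 ± 16.8 CPM in SD, with overlapping groups and no call. The further eIF2 genes Eif2s3x and Eif2s3y were not in the deposited table under these symbols. The factors eIF2A and eIF2D, which can also bring tRNA to the ribosome, had lower messages in SD. Eif2d measured 37.0, 41.3 and 44.2 CPM in the Ctrl libraries and 29.2, 35.01 and 22.9 CPM in the SD libraries and fell 1.41-fold (adjusted p = 0.0011), and Eif2a fell 1.198-fold from 140.1 ± 11.3 CPM (adjusted p = 0.0017, or 0.051 in a limma fit without trend).

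Of the 5 genes for subunits of eIF2B, the exchange factor of eIF2, 2 rose, 1 fell and 2 did not pass. Eif2b4, for the delta subunit, measured 50.2, 44.5 and 55.7 CPM in the Ctrl libraries and 69.7, 75.8 and 90.3 CPM in the SD libraries. It rose 1.57-fold with no overlap (log2 fold change 0.64 ± 0.097 s.e., adjusted p = 5.7e-07). Eif2b1, for the alpha subunit, measured 31.1, 28.4 and 27.5 CPM in the Ctrl libraries and 18.1, 22.1 and 22.1 CPM in the SD libraries and fell 1.395-fold (adjusted p = 0.0034). Eif2b2, for the beta subunit, went from 60.3 ± 3.19 to 69.2 ± 3.54 CPM (adjusted p = 0.049), a call lost in the DESeq2 test (adjusted p = 0.063) and without any of 4 libraries: Ctrl replicate 1 (0.18), Ctrl replicate 2 (0.080), SD replicate 1 (0.12) or SD replicate 2 (0.13). Eif2b3 and the catalytic epsilon subunit gene Eif2b5 did not pass, Eif2b5 standing at 87.0 ± 8.26 CPM in Ctrl and 85.8 ± 4.78 CPM in SD. Of the kinases that phosphorylate eIF2, Eif2ak1, which senses heme in red cell precursors, measured 19.2, 14.3 and 22.9 CPM in the Ctrl libraries and 10.6, 15.4 and 10.0 CPM in the SD libraries. Its groups overlapped, the lowest Ctrl library lying below the highest SD library, and its 1.57-fold fall (adjusted p = 0.0053) was lost without Ctrl replicate 3 (adjusted p = 0.074). Eif2ak3 (PERK), which responds to unfolded protein in the endoplasmic reticulum, stood at 11.4 ± 0.982 CPM in Ctrl and 9.24 ± 1.296 CPM in SD and Eif2ak4 (GCN2), which responds to uncharged tRNA, at 57.4 ± 2.58 CPM in Ctrl and 49.6 ± 1.55 CPM in SD (adjusted p = 0.054, no overlap between groups), and neither passed. Eif2ak2, a further kinase gene of this family, was not in the deposited table under this symbol. Exons of Eif2ak1 overlap those of Aimp2 and Ankrd61 on the opposite strand, and exons of Eif2b4 overlap Snx17, over 11.6% and 7.85% of their length. No strand setting is stated, so reads there cannot be told apart.

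Of the 12 genes for eIF3 subunits in the table, 7 fell, 3 rose and 2 did not pass, with a median log2 fold change of -0.19. That is 58.3% lower and 25.0% higher, beside 28.7% and 27.7% of all tested genes. These sets differ in level, with a median Ctrl value of 333 CPM for eIF3 and 22.5 CPM for all tested genes. The median size of the change without its sign was 0.22 for eIF3, beside 0.39. Eif3b (chromosome 5, 140419328 to 140443360, mm10), a scaffold subunit of the core, measured 183, 192 and 191 CPM in the Ctrl libraries and 88.5, 99.9 and 89.5 CPM in the SD libraries. It fell 2.04-fold with no overlap between the groups (log2 fold change -1.02 ± 0.067 s.e., adjusted p = 3.1e-16). Eif3l measured 57.7, 55.5 and 78.6 CPM in the Ctrl libraries and 33.6, 32.9 and 30.04 CPM in the SD libraries, Ctrl replicate 3 being the highest, and fell 1.99-fold (log2 fold change -0.95 ± 0.11 s.e., adjusted p = 2.2e-09). Eif3h, the most abundant subunit message per kilobase of exon (618 CPM per kb in Ctrl), measured 1033, 957 and 999.6 CPM in the Ctrl libraries and 792, 809 and 798 CPM in the SD libraries and fell 1.246-fold (log2 fold change -0.32 ± 0.040 s.e., adjusted p = 1.1e-08). Eif3m, Eif3i, Eif3e and Eif3k fell by smaller amounts, 1.13-fold to 1.18-fold, and of these Eif3m, Eif3e and Eif3k did not pass in a limma fit without trend (adjusted p = 0.052, 0.057 and 0.079). In the other direction, Eif3g, for an RNA-binding subunit, measured 145, 135 and 132 CPM in the Ctrl libraries and 174, 175 and 162 CPM in the SD libraries and rose 1.24-fold (log2 fold change 0.31 ± 0.063 s.e., adjusted p = 6.7e-05). Eif3d, for a cap-binding subunit, rose 1.13-fold from 310.3 ± 6.26 CPM (adjusted p = 0.0052), but it did not pass once libraries were quantile normalized (adjusted p = 0.27, log2 fold change 0.069) or without SD replicate 1 (0.074). Eif3d also shares 43.3% of its exon bases with an antisense gene, Gm17638. Eif3c, a core subunit gene, rose 1.21-fold (adjusted p = 0.028) with overlapping groups, and lost its call without Ctrl replicate 2 (0.18), Ctrl replicate 3 (0.066), SD replicate 2 (0.10) or SD replicate 3 (0.11). Eif3a, for the largest subunit, stood at 356 ± 14.7 CPM in Ctrl and 345 ± 10.9 CPM in SD and Eif3f at 137 ± 4.405 CPM in Ctrl and 146 ± 5.27 CPM in SD, and neither passed. Summed over the 12 genes the level was 4244 ± 17.5 CPM in Ctrl and 3734 ± 69.9 CPM in SD. Per kilobase of exon the Ctrl levels ran from 12.3 CPM per kb for Eif3c to 618 for Eif3h.

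**Figure D2:**
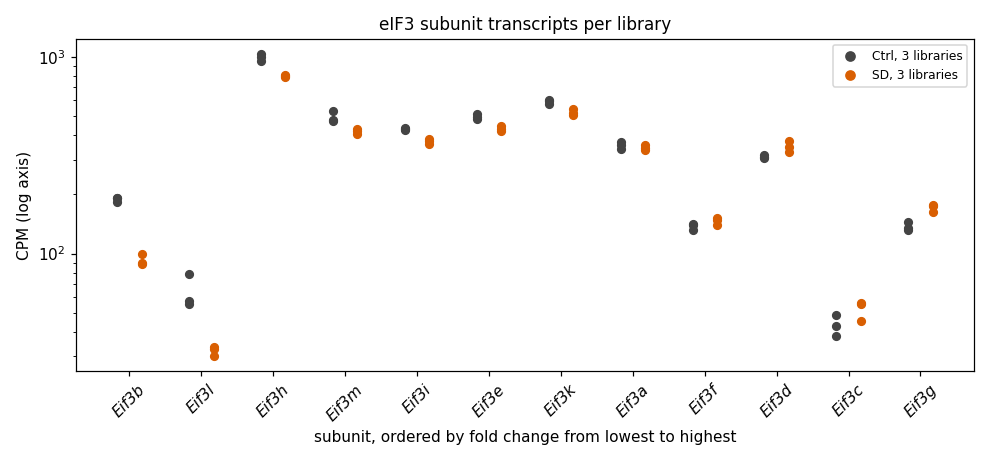
CPM on a log axis in each library for the 12 eIF3 subunit genes, 3 Ctrl (grey) and 3 SD (orange) points per gene, ordered by fold change. Eif3b and Eif3l stand apart from the others on the left, and Eif3d, Eif3c and Eif3g on the right are the 3 that rose.

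The helicase eIF4A unwinds the leader of the message with its cofactors eIF4B and eIF4H. Eif4h measured 182, 191 and 194 CPM in the Ctrl libraries and 102, 95.1 and 103 CPM in the SD libraries. All SD libraries lay far below all Ctrl libraries, a 1.89-fold fall (log2 fold change -0.91 ± 0.065 s.e., adjusted p = 3.0e-15). Eif4b measured 172, 168 and 159.5 CPM in the Ctrl libraries and 113, 112 and 112 CPM in the SD libraries and fell 1.48-fold, again with no overlap (log2 fold change -0.56 ± 0.064 s.e., adjusted p = 1.1e-09). The helicase genes differed. Eif4a2 measured 1193, 1313 and 1243 CPM in the Ctrl libraries and 1496, 1485 and 1549 CPM in the SD libraries and rose 1.21-fold (log2 fold change 0.27 ± 0.038 s.e., adjusted p = 9.4e-08). Eif4a3, whose product marks exon junctions, fell 1.35-fold from 46.9 ± 4.66 CPM (adjusted p = 0.0013), and Eif4a1 did not pass at 46.9 ± 1.80 CPM in Ctrl and 43.7 ± 4.06 CPM in SD. In Ctrl, Eif4a2 stood at 234 CPM per kb of exon, Eif4a3 at 22.1 and Eif4a1 at 10.8. Exons of Eif4a2 share 13.3% of their bases with Rfc4 and small RNA genes. Reads from near-identical copies of a gene elsewhere in the genome can be lost or shared, and how they were counted is not stated, so the levels of Eif4a1 and of other genes with such copies, Eef1a1 among them, are uncertain.

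eIF4G is the scaffold that joins the cap complex to eIF3. Eif4g3 measured 282, 259.9 and 262 CPM in the Ctrl libraries and 394, 398 and 406 CPM in the SD libraries, every SD library above every Ctrl library, and rose 1.49-fold (log2 fold change 0.57 ± 0.050 s.e., adjusted p = 1.1e-12). Eif4g1, the main scaffold gene, rose 1.12-fold from 514 ± 2.42 to 573 ± 15.3 CPM (adjusted p = 0.0021), a call lost after quantile normalization (log2 fold change 0.038, adjusted p = 0.48). Eif4g2, for a relative that does not bind eIF4E, stood at 2342 ± 109.8 CPM in Ctrl and 2395 ± 47.3 CPM in SD with overlapping groups and did not pass, nor did the cap-binding genes Eif4e (55.6 ± 5.16 CPM in Ctrl and 59.0 ± 3.04 CPM in SD), Eif4e2 (177 ± 13.5 CPM in Ctrl and 164 ± 9.42 CPM in SD) and Eif4e3 (26.2 ± 4.61 CPM in Ctrl and 32.5 ± 5.72 CPM in SD). Without Ctrl replicate 2, Eif4g2, Eif4e2 and Eif4e3 passed (adjusted p = 0.038, 0.029 and 0.019), as did Eif4e3 without SD replicate 2 (0.0087). Eif4ebp1, for the repressor 4E-BP1 that mTORC1 inactivates by phosphorylation, measured 91.1, 95.5 and 92.2 CPM in the Ctrl libraries and 139, 123 and 133 CPM in the SD libraries. It rose 1.42-fold without overlap (log2 fold change 0.50 ± 0.070 s.e., adjusted p = 1.4e-07). Its relative Eif4ebp2 measured 28.0, 20.2 and 32.2 CPM in the Ctrl libraries and 21.3, 20.5 and 21.7 CPM in the SD libraries and did not pass (adjusted p = 0.078). Without Ctrl replicate 2, the lowest Ctrl library, it did (log2 fold change -0.48, adjusted p = 0.0067), and without Ctrl replicate 3 its log2 fold change was -0.16. A further relative, Eif4ebp3, was not in the deposited table under this symbol. Eif4enif1, for the protein that carries eIF4E into the nucleus, rose 1.14-fold (adjusted p = 0.046). It did not pass with quantile-normalized libraries (adjusted p = 0.062), in the DESeq2 test (0.057), and without Ctrl replicate 2 (0.11), Ctrl replicate 3 (0.14), SD replicate 1 (0.11) or SD replicate 2 (0.14).

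The late initiation genes also differed in direction. Eif5a, whose product carries the amino acid hypusine and eases peptide bond formation at difficult sequences, measured 874, 835 and 888 CPM in the Ctrl libraries and 663, 671 and 651 CPM in the SD libraries and fell 1.31-fold (log2 fold change -0.39 ± 0.041 s.e., adjusted p = 1.7e-10). Eif5, which triggers GTP hydrolysis by eIF2, measured 378, 403 and 365 CPM in the Ctrl libraries and 301, 311 and 331 CPM in the SD libraries and fell 1.22-fold (adjusted p = 1.3e-05). Eif5b, which joins the ribosomal subunits, measured 220.4, 219 and 198 CPM in the Ctrl libraries and 278, 231 and 251 CPM in the SD libraries and rose 1.19-fold (adjusted p = 6.6e-04). The groups of these 3 genes did not overlap, and exons of Eif5b share 16.8% of their bases with Rev1 on the opposite strand. After quantile normalization the log2 fold change of Eif5b was 0.17 instead of 0.25, still past the threshold, but Eif5b did not pass in a limma fit without trend (adjusted p = 0.079). Eif6, which keeps ribosomal subunits apart, did not pass at 119.9 ± 12.5 CPM in Ctrl and 131 ± 2.51 CPM in SD, and Eif5a2, a rarely expressed relative of Eif5a, was near the floor at 3.07 ± 1.66 CPM in Ctrl and 1.48 ± 1.28 CPM in SD (adjusted p = 0.065). Eif5a2 passed without Ctrl replicate 2 (adjusted p = 0.0099) or SD replicate 3 (0.0094), and Eif6 without Ctrl replicate 3 (0.027).

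Eef1a1 (chromosome 9, 78478449 to 78489151, mm10) took more reads than any other gene of the table in each of the 6 libraries. It measured 14441, 14876 and 14546 CPM in the Ctrl libraries and 9848, 9703 and 9845 CPM in the SD libraries. It fell 1.49-fold, and the spread within each group was far smaller than the gap between them (log2 fold change -0.58 ± 0.026 s.e., adjusted p = 4.1e-21). After quantile normalization, which gives the top gene of every library the same value, the difference of a gene ranked 1 in all libraries is 0 by construction and the call was lost. Eef2 measured 6361, 5740.0 and 6096 CPM in the Ctrl libraries and 3958, 4206 and 3864 CPM in the SD libraries, ranking 3 in each Ctrl library and 8 to 9 in the SD libraries. It fell 1.51-fold (log2 fold change -0.60 ± 0.034 s.e., adjusted p = 6.2e-18). Eef1b2, for the exchange subunit of eEF1B, measured 238, 206 and 235 CPM in the Ctrl libraries and 149.6, 153 and 139 CPM in the SD libraries and fell 1.54-fold (log2 fold change -0.61 ± 0.063 s.e., adjusted p = 7.9e-11).

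The other 4 elongation factor genes did not pass, so that 3 of 7 fell and 0 rose, beside 28.7% and 27.7% of all tested genes. Eef1d, for the delta subunit, stood at 13.0 ± 1.52 CPM in Ctrl and 12.9 ± 3.20 CPM in SD. Eef1g, for the gamma subunit, stood at 1.70 ± 1.17 CPM in Ctrl and 2.15 ± 1.19 CPM in SD, with 3 reads in Ctrl replicate 1. Per kilobase of exon, Ctrl levels were 0.654 CPM for Eef1g and 2.01 for Eef1d, beside 89.3 for Eef1b2. Whether reads of Eef1g or Eef1d were lost in counting was not tested, so their levels are uncertain. Eef1e1, counted among the 7 by its name although its product sits in the multi-synthetase complex, stood at 10.8 ± 1.04 CPM in Ctrl and 9.09 ± 0.912 CPM in SD. Eef1a2, the isoform of neurons and muscle, measured 2.90, 1.35 and 1.57 CPM in the Ctrl libraries and 2.46, 2.44 and 3.74 CPM in the SD libraries and did not pass (adjusted p = 0.23). In Ctrl it stood at 0.930 CPM per kb of exon, beside 5865 for Eef1a1. Eef2k, whose kinase inactivates eEF2, measured 4.69, 2.70 and 5.98 CPM in the Ctrl libraries and 3.84, 6.60 and 8.52 CPM in the SD libraries with overlapping groups (adjusted p = 0.19, or 0.037 without SD replicate 1).

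**Figure D3:**
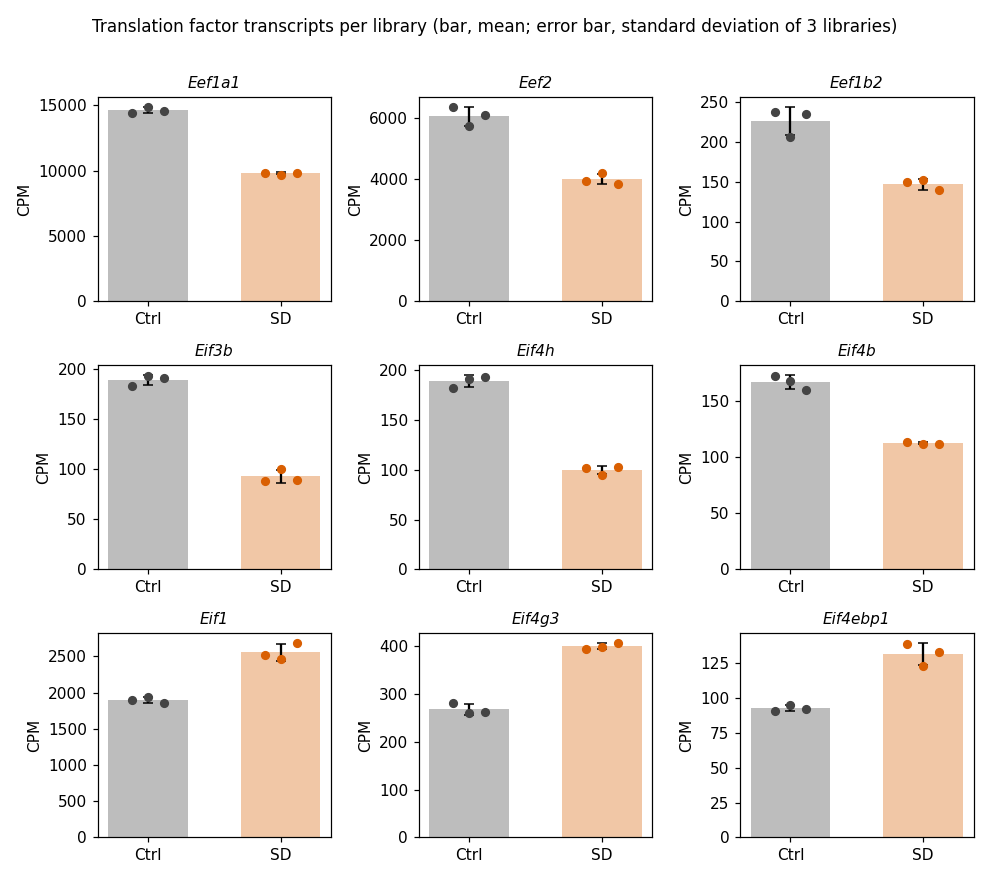
CPM per library for 9 translation factor genes that passed, with bars at the group mean from 0, error bars for the standard deviation and a point for each of 3 Ctrl (grey) and 3 SD (orange) libraries. Eef1a1, Eef2, Eef1b2, Eif3b, Eif4h and Eif4b were lower in SD and Eif1, Eif4g3 and Eif4ebp1 higher, and in none of the 9 did the groups overlap.

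Of the 3 termination factor genes 2 rose and 1 did not pass, in a table where 27.7% of all tested genes rose. Etf1 encodes eRF1, which reads the stop codon. It measured 363, 366 and 361 CPM in the Ctrl libraries and 419, 405 and 432 CPM in the SD libraries and rose 1.15-fold (log2 fold change 0.20 ± 0.047 s.e., adjusted p = 3.5e-04). After quantile normalization its log2 fold change was 0.13, still past the threshold. Gspt2, 1 of the genes for eRF3, measured 2.76, 3.91 and 2.71 CPM in the Ctrl libraries and 4.15, 7.89 and 6.43 CPM in the SD libraries and rose 1.97-fold (log2 fold change 0.77 ± 0.26 s.e., adjusted p = 0.012), a call lost without SD replicate 2 (adjusted p = 0.086). Gspt1, the more abundant eRF3 gene at 38.7 CPM per kb of exon in Ctrl against 0.827 for Gspt2, measured 204, 219 and 207 CPM in the Ctrl libraries and 241, 221 and 227 CPM in the SD libraries. Its groups did not overlap, but it did not pass (adjusted p = 0.055). It passed in 6 of 20 alternatives, among them edgeR (adjusted p = 0.037) and the fits without Ctrl replicate 2 (0.025) or SD replicate 2 (0.040), and after quantile normalization its log2 fold change was 0.042.

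Each aminoacyl-tRNA synthetase joins 1 amino acid to its tRNAs, and the cytosolic enzymes are in most cases encoded apart from those of mitochondria. Of the 18 cytosolic genes 9 fell, 2 rose and 7 did not pass, with a median log2 fold change of -0.28. That is 9 of 18 lower and 11.1% higher, beside 28.7% and 27.7% of all tested genes. Their median Ctrl value was 73.7 CPM, beside 22.5 CPM for all tested genes. The median size of the change without its sign was 0.36, beside 0.39. Gars (chromosome 6, 55038007 to 55079500, mm10), for glycine and used in both compartments, measured 194, 206 and 208 CPM in the Ctrl libraries and 119, 103 and 123 CPM in the SD libraries. It fell 1.76-fold without overlap (log2 fold change -0.81 ± 0.067 s.e., adjusted p = 2.3e-13). Wars, for tryptophan, an interferon-inducible gene, measured 244, 243 and 249 CPM in the Ctrl libraries and 141, 153 and 149 CPM in the SD libraries and fell 1.66-fold (log2 fold change -0.73 ± 0.058 s.e., adjusted p = 8.6e-14). Sars, for serine, the most abundant at 122 CPM per kb of exon in Ctrl, measured 624, 624 and 637 CPM in the Ctrl libraries and 485, 493 and 469 CPM in the SD libraries and fell 1.302-fold (log2 fold change -0.38 ± 0.043 s.e., adjusted p = 1.0e-09). Vars, for valine, and Aars, for alanine, fell 1.39-fold and 1.36-fold from 172 ± 6.41 and 124 ± 5.68 CPM (adjusted p = 5.1e-08 and 1.7e-06). Lars (leucine) and Qars (glutamine) fell 1.47-fold and 1.26-fold, and Qars did not pass in a limma fit without trend (adjusted p = 0.054). Aars shares 15.1% of its exon bases with other genes, Exosc6 among them.

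Nars (asparagine) and Hars (histidine) fell 1.254-fold and 1.18-fold with less margin. Nars lost its call without Ctrl replicate 3 (adjusted p = 0.066) or SD replicate 1 (0.085, log2 fold change -0.20 instead of -0.33). Hars lost it without Ctrl replicate 3 (0.13), SD replicate 2 (0.059) or SD replicate 3 (0.075), and its exons overlap those of Hars2 on the opposite strand. Nars and Hars also did not pass in a limma fit without trend (adjusted p = 0.097 and 0.095). The 2 that rose were Cars, for cysteine, and Tars, for threonine. Cars measured 16.1, 15.2 and 16.7 CPM in the Ctrl libraries and 23.3, 24.0 and 24.7 CPM in the SD libraries, without overlap, and rose 1.498-fold (log2 fold change 0.55 ± 0.15 s.e., adjusted p = 0.0014). Tars measured 39.2, 35.7 and 30.6 CPM in the Ctrl libraries and 44.2, 49.1 and 45.3 CPM in the SD libraries and rose 1.31-fold (log2 fold change 0.39 ± 0.11 s.e., adjusted p = 0.0026). Among those that did not pass, Kars (lysine, both compartments) stood at 222 ± 3.73 CPM in Ctrl and 209 ± 8.21 CPM in SD, its SD libraries all below its Ctrl libraries (adjusted p = 0.19). Dars (aspartate), Eprs (the bifunctional enzyme for glutamate and proline), Iars (isoleucine), Mars (methionine), Rars (arginine) and Yars (tyrosine) were the others. Of the 7, Iars had the largest estimated change, 12.8 ± 3.16 CPM in Ctrl and 9.48 ± 3.38 CPM in SD (adjusted p = 0.094), and Eprs the smallest, 54.8 ± 2.13 CPM in Ctrl and 55.0 ± 2.01 CPM in SD. The Iars log2 fold change lay between -0.63 and -0.14 when 1 was left out, the latter without SD replicate 3, and it passed without Ctrl replicate 3 (adjusted p = 0.042) or SD replicate 1 (0.025). Mars passed without SD replicate 1 (0.0073), and Kars after quantile normalization (0.012).

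Mitochondrial synthetase genes drew few reads, with a median Ctrl value of 5.12 CPM. Of 16, 3 fell, 1 rose and 12 did not pass (25.0% called against 56.4% of all tested genes). Vars2 (chromosome 17, 35655634 to 35667592, mm10), for valine, had the lowest log2 fold change of all 92 genes. It measured 24.7, 25.5 and 26.9 CPM in the Ctrl libraries and 8.60, 11.2 and 11.1 CPM in the SD libraries, and fell 2.50-fold with no overlap (log2 fold change -1.25 ± 0.16 s.e., adjusted p = 2.3e-08). Fars2, for phenylalanine, measured 9.80, 7.42 and 8.12 CPM in the Ctrl libraries and 5.22, 2.73 and 3.89 CPM in the SD libraries and fell 2.14-fold (log2 fold change -0.96 ± 0.24 s.e., adjusted p = 1.0e-03). Tars2, for threonine, measured 14.1, 15.1 and 13.2 CPM in the Ctrl libraries and 18.9, 21.0 and 19.7 CPM in the SD libraries and rose 1.404-fold (log2 fold change 0.46 ± 0.16 s.e., adjusted p = 0.012). Aars2, Ears2, Hars2, Iars2, Lars2, Mars2, Nars2, Pars2, Rars2, Sars2, Wars2 and Yars2 did not pass. Their Ctrl means ran from 0.966 CPM for Pars2 to 18.6 CPM for Rars2. With a library left out 3 of the 12 passed: Iars2 without Ctrl replicate 1 (adjusted p = 0.013), Lars2 without SD replicate 2 (0.010) and Sars2 without Ctrl replicate 3 (0.022). Exons of Vars2 and Fars2 overlap genes on the opposite strand over 8.52% and 10.7% of their bases.

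For 13 amino acids both a cytosolic and a mitochondrial gene were in the table. The cytosolic gene had the higher Ctrl level per kilobase of exon in 13 of 13, by 1.39-fold for Rars over Rars2 up to 184-fold for Sars over Sars2. Sars2 had 12, 4 and 31 reads in the Ctrl libraries, so the size of its ratio is uncertain. Valine and threonine were the 2 amino acids for which both genes passed, and in both cases they moved the same way, Vars and Vars2 down and Tars and Tars2 up. For 7 amino acids 1 of the pair passed and for 4 neither did. Wars fell and Wars2 did not pass (3.17 ± 0.547 CPM in Ctrl and 1.83 ± 0.0369 CPM in SD, adjusted p = 0.095). The groups of Wars2 did not overlap, and it passed in a limma fit without trend (adjusted p = 0.0074). The difference between the members of a pair was not tested.

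**Figure D4:**
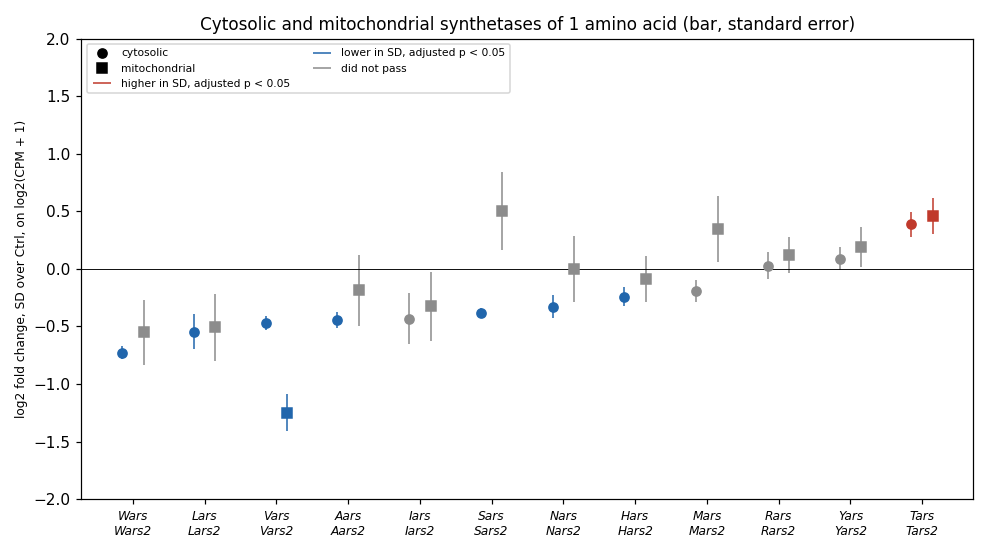
Log2 fold change of SD over Ctrl on the log2(CPM + 1) scale with its standard error for 12 of the 13 amino acids, the cytosolic gene as a circle and the mitochondrial gene as a square, ordered by the cytosolic value. Both genes of a pair are coloured as passing for valine (Vars, Vars2), which were lower, and threonine (Tars, Tars2), which were higher in SD.

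Promoter sequences were read from RefSeq's mouse genes (GRCm38.p6, the assembly behind mm10). These held stretches of 250 bases before and 50 after a listed start for 69 of the 92 genes. In all, 32851 stretches were listed for 27025 genes, so some genes had more than 1. A gene was counted where any of its stretches matched, so the shares depend on how many stretches each gene has. Both strands were searched for TGATGNAA, a form of the C/EBP-ATF response element through which ATF4 acts, and for CACGTG, the E-box that CLOCK with BMAL1 and MYC with MAX can bind. TGATGNAA occurred for 6 of 69 genes (8.70%), against 4.51% of all 27025 genes with a listed promoter, a set not limited to genes tested here. They were Eef2k and 5 of the 10 matched cytosolic synthetases, Aars, Gars, Iars, Tars and Yars, of which Aars and Gars fell, Tars rose and Iars and Yars did not pass. The stretches around the match in these 5 synthetase genes are shown, with up to 40 bases on each side and at most 30 bases past the start. That of Eef2k is not printed. Whether the element bears on the direction of a gene was not tested. Capitals mark the matches; in Gars, Aars, Tars and Iars the element is on the other strand, so its reverse complement is seen.
Gars, chr6:55037931-55038018, plus strand: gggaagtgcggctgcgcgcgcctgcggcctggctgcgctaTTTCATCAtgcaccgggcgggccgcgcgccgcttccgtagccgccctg
Aars, chr8:111033690-111033871, plus strand: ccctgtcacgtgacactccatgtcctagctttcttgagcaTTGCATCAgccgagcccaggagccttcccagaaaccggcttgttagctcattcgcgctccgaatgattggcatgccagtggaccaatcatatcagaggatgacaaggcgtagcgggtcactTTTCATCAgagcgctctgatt
Tars, chr15:11399629-11399713, minus strand: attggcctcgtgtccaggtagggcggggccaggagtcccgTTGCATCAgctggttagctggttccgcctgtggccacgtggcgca
Iars, chr13:49682097-49682159, plus strand: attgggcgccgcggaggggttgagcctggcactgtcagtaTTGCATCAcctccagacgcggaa
Yars, chr4:129189866-129189932, plus strand: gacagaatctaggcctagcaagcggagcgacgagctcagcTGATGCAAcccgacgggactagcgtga
Aars holds 2 matches, and the matches of Gars and Tars begin 30 and 15 bases before the listed start, while those of Iars and Yars begin 8 and 4 bases after it.

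CACGTG occurred for 16 of 69 genes (23.2%), against 8.09% of the same 27025 genes with a listed promoter. That set was not limited to the 9945 tested genes, and the share among tested genes was not computed. Of these 16 genes 5 fell (Aars, Eef2, Eif3k, Eif4h and Eif5a), 3 rose (Eif1b, Eif4g1 and Tars) and 8 did not pass. The 3 stretches printed are from genes that fell without overlap, and the E-box is in capitals.
Eef2, chr10:81176548-81176633, plus strand: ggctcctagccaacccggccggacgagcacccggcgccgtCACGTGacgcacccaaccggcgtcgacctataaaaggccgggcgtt
Eif4h, chr5:134639460-134639545, minus strand: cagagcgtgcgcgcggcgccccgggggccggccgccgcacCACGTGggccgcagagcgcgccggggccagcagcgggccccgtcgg
Eif5a, chr11:69921415-69921500, minus strand: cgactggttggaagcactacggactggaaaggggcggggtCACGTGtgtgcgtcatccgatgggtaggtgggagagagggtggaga
In these stretches the E-box begins 43, 96 and 74 bases before the listed start. A match describes the letters in these windows, and binding was not measured.

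ATF4 and 34 further symbols of the integrated stress response formed a list of neighbouring genes, 32 of which were tested. In it 10 rose, 11 fell and 11 did not pass (65.6% called, beside 56.4% of all tested genes, median log2 fold change -0.14). Atf4 measured 209, 204 and 219 CPM in the Ctrl libraries and 301, 293 and 306 CPM in the SD libraries and rose 1.42-fold (log2 fold change 0.51 ± 0.053 s.e., adjusted p = 1.7e-10). Nupr1, a stress-induced chromatin protein, rose 2.46-fold from 206 ± 25.9 CPM, and Slc1a5, a glutamine transporter, 1.84-fold. Phgdh, the first enzyme of serine synthesis, measured 112, 104 and 106 CPM in the Ctrl libraries and 34.7, 43.8 and 33.9 CPM in the SD libraries and fell 2.86-fold (log2 fold change -1.502 ± 0.093 s.e., adjusted p = 5.9e-17). Genes of the list rose and fell in near equal number.

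Among 42 tested cytosolic translation proteins whose names the rule did not cover, 8 rose, 12 fell and 22 did not pass (47.6% called, beside 56.4% of all tested genes, median log2 fold change -0.078). Pdcd4, an inhibitor of the helicase eIF4A, measured 43.1, 39.0 and 43.9 CPM in the Ctrl libraries and 117, 109 and 121 CPM in the SD libraries and rose 2.76-fold (log2 fold change 1.44 ± 0.084 s.e., adjusted p = 1.0e-17). Pelo, which rescues stalled ribosomes, rose 1.75-fold and Cnbp, an RNA-binding protein, 1.22-fold. Eefsec, the elongation factor for selenocysteine, stood at 9.62 ± 1.68 CPM in Ctrl and 8.18 ± 1.95 CPM in SD and did not pass. Of 13 tested mitochondrial translation factors 2 rose, 3 fell and 8 did not pass (38.5% called, beside 56.4%, median log2 fold change 0.015). Tufm, the mitochondrial counterpart of eEF1A, measured 73.1, 78.3 and 73.5 CPM in the Ctrl libraries and 54.7, 50.9 and 63.1 CPM in the SD libraries and fell 1.33-fold (log2 fold change -0.41 ± 0.089 s.e., adjusted p = 1.4e-04). Mtfmt, which formylates the mitochondrial initiator tRNA, rose 1.72-fold (adjusted p = 0.0085) and Lrpprc, a stabiliser of mitochondrial messages, fell 1.60-fold (adjusted p = 0.019).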

How the data were processed

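The submitters' processing notes name HISAT2 2.0.5, featureCounts 1.5.0-p3 and the mm10 build; strand and other settings are not given in the sources used here. Per the file headers, what the authors deposited is CPM for each of 6 libraries. Its values are multiples of 1 step per column, which gave back whole reads for 61022 of 61146 values (99.8%, tolerance 0.01 read) and the library totals. The 124 other values lie in the 60 rows left out. Group was the sole term of a limma 3.58.1 fit (with trend) to log2(CPM + 1). The filter asked for 1 CPM or more in 3 or more libraries. The code of the fit was run on simulated data that gave every gene the same dispersion (spread beyond counting error). Spread that differs from gene to gene was left out, so this run does not test the calls made here. DESeq2 1.42.0 was an alternative. edgeR 4.0.16 on the recovered reads called 5533 of 9642 genes (57.4%), and 5612 with all rows kept. Levels per kilobase use the merged exons of GENCODE M21, and gene names were matched by ID. The members, roles and lists were chosen with earlier results of these data known. Named genes were the 10 largest rises and falls, the 3 smallest p of each role and list, near relatives and members against their role; the remaining members are named to account for the rest. The values of 1 member and the genotype are not reported here. Marker genes came from a fixed list. Alternatives were other pseudocounts, filters, scalings, tests and left-out libraries.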

Additional observations from a re-analysis of the deposited data

How the results depend on the processing

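Over 20 alternatives, 1 of them added after the data were seen (edgeR with all rows kept), counts stayed within 1.5 times those reported in all but the test against a bound of 1.2-fold. There 3096 genes, 19 of the 92 members (4 higher, 15 lower) and 30 companion list genes passed, by its stricter construction. Elsewhere the members called ran from 35 without trend to 50, and with a library left out from 46 to 52 (16 to 18 higher, 29 to 34 lower), with 4968 to 5219 genes in all and 66 to 71 in the lists. Libraries with the same replicate number did not deviate together (correlations of deviations from group means -0.00703, -0.0190 and 0.0129), so the numbers were not taken as pairs. With the replicate block 5552 genes and 48 members were called, Eif2b2 and Eif4enif1 not passing (adjusted p = 0.063 and 0.057) and Eif5a2 passing. Of the 49 called members 17 passed in every alternative, and Fars2 in each of the 19 that tested it (it was under the filter of 10 CPM). The fit without trend lost 15 calls. Beside those given above, Eif2ak1, Eif2b2, Eif3c, Eif3d, Eif4enif1 and Eif4g1 were among them (adjusted p from 0.060 for Eif2ak1 to 0.13 for Eif3c). Of the 43 members that did not pass, 17 passed in at least 1 alternative, in 28 cases over all. No called member changed sign. Of those not called, 10 did with a library left out: Aars2 (-0.44 to 0.0095), Ears2 (-0.16 to 0.13), Eef1d (-0.21 to 0.11), Eef1g (-0.14 to 0.55), Eif2b3 (-0.20 to 0.094), Eif2b5 (-0.069 to 0.058), Eprs (-0.024 to 0.033), Iars2 (-0.84 to 0.0044), Nars2 (-0.16 to 0.11) and Yars (-0.019 to 0.16). So did Ears2 in DESeq2 (0.0047), Eef1d after quantile normalization (0.00046) and Nars2 with a pseudocount of 3 (-0.0024), after quantile normalization (-0.015), in edgeR (-0.0084, or -0.013 with all rows) and in DESeq2 (-0.0057). The cause was not tested.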

Other observations

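Genes that mature, modify or export tRNA were called in 35.9% of cases, beside 56.4% of the table, at a median Ctrl level of 8.65 CPM. Of 39 tested, 5 rose, 9 fell and 25 did not pass. Trmt5, a tRNA methyltransferase, went from 53.7 ± 5.47 to 40.5 ± 3.15 CPM (adjusted p = 0.0011, limma). Pus10, a pseudouridine synthase, fell 1.76-fold (adjusted p = 0.0018) and Elac2, which trims tRNA ends, rose 1.68-fold (adjusted p = 0.0026).

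Among 30 genes of the MYC network and ribosome biogenesis 10 rose, 7 fell and 13 did not pass (56.7% called, beside 56.4% of the table). Mnt, a repressor that pairs with MAX, measured 64.5, 58.6 and 56.3 CPM in the Ctrl libraries and 93.5, 96.4 and 85.9 CPM in the SD libraries and rose 1.54-fold (adjusted p = 5.3e-08, limma). Nop56, of the box C/D snoRNA particles, rose 1.55-fold and Nolc1, a nucleolar chaperone, 2.02-fold. Myc itself stood at 26.9 ± 1.14 CPM in Ctrl and 22.2 ± 2.97 CPM in SD and did not pass (adjusted p = 0.085).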
